A study of Homo sapiens with 19 samples.

Results

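The enzymes described here supply deoxynucleotides, the building blocks of DNA, and were followed by RNA-seq in MDA-MB-231, an established human triple-negative breast cancer cell line. They are the 9 genes TYMS, RRM1, RRM2, TK1, DUT, DTYMK, DCK, CTPS1 and TYMP, chosen by their symbol from a named list of the pathway. All 9 were found in each of 3 expression tables, among 17886 genes common to the tables. In GENCODE 29 (GRCh38) TYMS (ENSG00000176890) lies on chromosome 18, RRM1 (ENSG00000167325) on 11, RRM2 (ENSG00000171848) on 2, TK1 (ENSG00000167900) on 17 and DUT (ENSG00000128951) on 15. DTYMK (ENSG00000168393) lies on chromosome 2, DCK (ENSG00000156136) on 4, CTPS1 (ENSG00000171793) on 1 and TYMP (ENSG00000025708) on 22. Adherent cells grew in DMEM with 10% FCS, fetal calf serum (n = 2), and spheres grew in suspension in DMEM/F12 medium with B27, EGF and FGF (both factors at 20 ng/ml) for 16 h (n = 2) or 5 d (n = 2). Knockdown cells received siRNA by reverse transfection and spent 48 h in sphere medium. One experiment compared siSCIRT 1 and siSCIRT 2, which target the long noncoding RNA SCIRT, with a control siRNA called siNC (n = 3 libraries each). The other compared siEZH2, which targets the histone methyltransferase gene EZH2, with siNC libraries of its own (n = 2 each). Spheres and adherent cells thus differed in serum, growth factors and medium as well as in attachment, and these cannot be told apart. All knockdown libraries, controls included, came from cells in sphere medium, and no adherent knockdown was analysed here. The culture comparisons ask how RNA levels differ between attached cells and spheres, and the knockdowns ask what silencing SCIRT or EZH2 does to cells in sphere medium.

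DNA synthesis draws on deoxynucleotides made along 2 routes. In the de novo route ribonucleotide reductase turns ribonucleotides into deoxyribonucleotides, and thymidylate synthase makes the thymine nucleotide. In the salvage route kinases phosphorylate deoxynucleosides taken up from outside. Many of these genes are known to be expressed most in S phase, and several are targets of cancer drugs such as fluorouracil, hydroxyurea and gemcitabine.

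The line's labelled identity was checked against its markers. VIM, CD44, AXL, CAV1 and MSN, which mark its mesenchymal state, averaged at least 2527 normalized counts in every group, and ESR1, the estrogen receptor, at most 9.83. CDH1 and, where its gene was measured, PGR averaged at most 19.7. Of the genes listed as low in this line, KRT19, a keratin, went against the list with a lowest group mean of 3613, and EPCAM and ERBB3 reached group means of 500.1 and 649. Normalized counts are reads divided by a size factor of each library, and they are comparable within a table only. Library totals were 6104222 to 14781941 reads in the culture table, 38635418 to 62218847 in the siSCIRT table and 27989577 to 38955312 in the siEZH2 table. The target of each siRNA was lower in its own knockdown. SCIRT (RP5-1120P11.1 in the tables) held 121, 112 and 127 normalized counts with siSCIRT 1 and 159, 105 and 117 with siSCIRT 2, against 264, 287 and 256 with siNC. EZH2 held 275 and 278 normalized counts with siEZH2, against 518 and 529 with siNC.

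Promoter sequences are shown for the 3 members whose RNA differed most in 16 h spheres (TYMS, TK1 and RRM2) and for DUT, whose RNA did not pass the test there. Each is the 150 bases before a RefSeq transcript start (GRCh38.p14), 5′ to 3′ on the gene's strand. Capitals mark letters of the E2F motif (TTTCCCGC, TTTGGCGC, TTTCGCGC or TTTGCCGC) or of the CCAAT box, each searched on both strands.
TYMS, chr18:657503-657652, plus strand: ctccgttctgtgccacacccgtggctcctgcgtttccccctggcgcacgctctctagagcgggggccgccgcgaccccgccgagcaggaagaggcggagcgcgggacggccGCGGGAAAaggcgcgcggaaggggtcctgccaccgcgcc
DUT, chr15:48332047-48332196, plus strand: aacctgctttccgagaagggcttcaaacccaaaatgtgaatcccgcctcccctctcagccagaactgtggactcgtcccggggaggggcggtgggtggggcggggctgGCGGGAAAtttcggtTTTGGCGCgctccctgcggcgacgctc
RRM2, chr2:10122589-10122738, plus strand: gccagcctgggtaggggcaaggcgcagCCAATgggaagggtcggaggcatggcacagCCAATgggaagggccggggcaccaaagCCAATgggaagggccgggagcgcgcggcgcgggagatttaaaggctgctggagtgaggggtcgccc
TK1, chr17:78187053-78187202, minus strand: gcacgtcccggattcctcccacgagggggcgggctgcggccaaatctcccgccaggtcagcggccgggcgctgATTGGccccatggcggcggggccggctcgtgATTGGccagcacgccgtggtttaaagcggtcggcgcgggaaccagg
E2F factors are known to switch on S phase genes, and the CCAAT box is the motif of the factor NF-Y. TYMS held 1 E2F match, DUT held 2 in this window and RRM2 and TK1 held none, while RRM2 held 3 CCAAT boxes and TK1 held 2. Over the 300-base windows (250 bases before to 50 after each start) of all 9 members, 16 windows in all, the E2F letters were in 3 windows, those of TYMS, DUT and DCK. They were in 3.31% of 35116 such windows of all genes. CCAAT was in 7 of the 16 windows, from 5 of the 9 members, and in 34.6% of all windows. The GC box GGGCGG was in 12 of the 16, from 8 of the 9 members, and in 45% of all. Some windows of the same gene overlap, so a site can be counted more than once. The CHR motif TTTGAA was in 2 of the 16 windows and 15.2% of all, and the interferon element ISRE in none of the 16 and 3.57% of all. A match says only that these letters are present.

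Most of the enzymes were lower in spheres than in adherent cells, and the size of the difference depended on the enzyme and the time. In 16 h spheres 7 of the 9 passed the test as lower, against 53.9% of 13789 tested genes that passed in either direction (27.4% higher and 26.5% lower). In 5 d spheres 7 were lower, against 55.2% of all genes called, 26.3% higher and 28.9% lower. TYMS, TK1 and RRM2 differed most at 16 h: TYMS fell by 75.3%, TK1 fell by 76.2% and RRM2 fell by 69.8%. Of these RRM2 did not pass the test at 5 d, where TYMS and TK1 did. The median log2 fold change of the 9 was -0.91 at 16 h and -0.85 at 5 d, beside -0.01 and -0.02 for all tested genes.

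Ribonucleotide reductase is built from RRM1, the large subunit with the catalytic and regulatory sites, and RRM2, the small subunit that carries the radical and is made in S phase. RRM1 stood at 875 and 879.8 normalized counts in adherent culture, 439 and 492 at 16 h of sphere culture and 532 and 536 at 5 d. Every sphere library was below both adherent libraries. The log2 fold change was -0.91 ± 0.08 (SE) at 16 h (adjusted p = 5e-12) and -0.71 ± 0.08 at 5 d (adjusted p = 2.5e-09). RRM2 stood at 626 and 627 in adherent culture, 219 and 162 at 16 h of sphere culture and 570.4 and 647 at 5 d. The 16 h libraries were far below all others, while the 5 d libraries lay on both sides of the adherent ones. RRM2 differed by -1.73 ± 0.11 at 16 h (adjusted p = 7.4e-16), whereas its 5 d difference was -0.04 ± 0.11 (adjusted p = 0.75). It was higher at 5 d than at 16 h by 1.68 ± 0.11 (adjusted p = 3e-15). The ratio of RRM2 to RRM1 normalized counts, which is not corrected for length, was 0.716 and 0.713 in adherent culture, 0.498 and 0.33 at 16 h of sphere culture and 1.07 and 1.21 at 5 d. These ratios do not overlap between the 3 cultures and are given without a test.

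**Figure D1:**
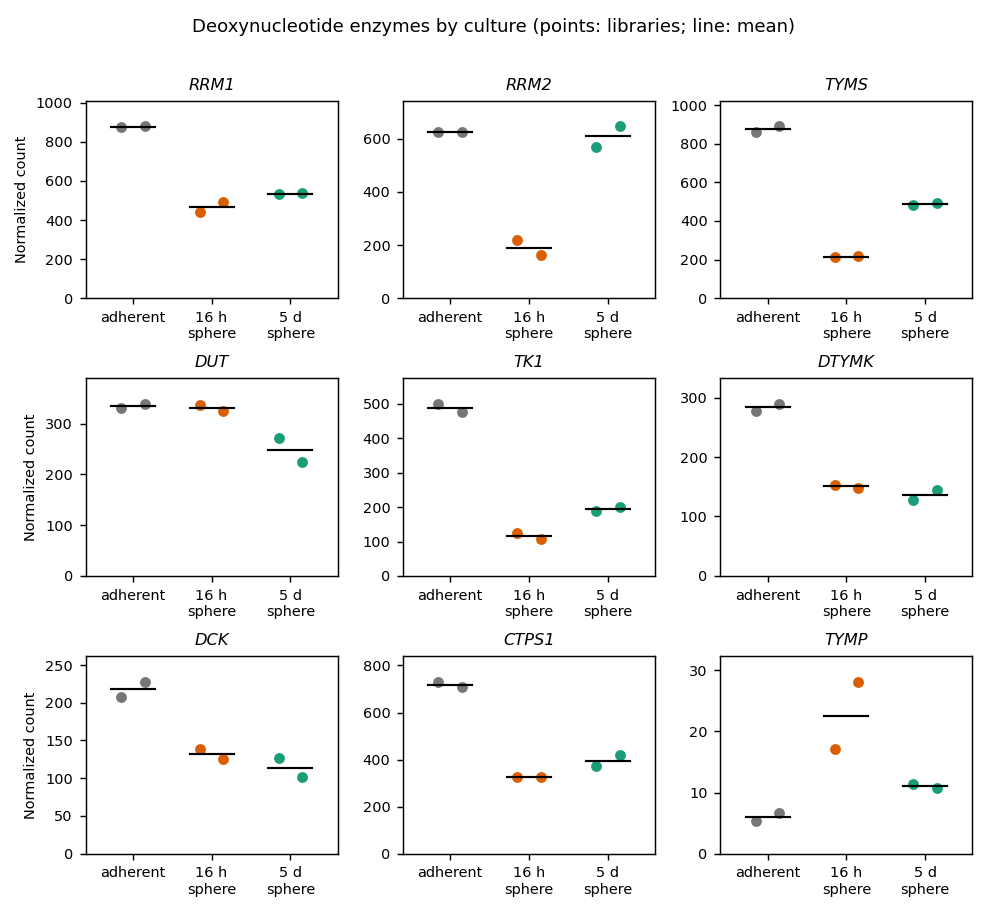
Normalized counts (y axis, from 0) of the 9 enzymes in adherent cells, 16 h spheres and 5 d spheres. Points are the 2 libraries of a group and lines their mean. TYMS, TK1 and RRM2 are lowest at 16 h, DUT at 5 d, and RRM2 at 5 d is level with adherent cells.

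Thymidylate synthase, TYMS, methylates dUMP to dTMP, and DUT, the dUTPase, makes its substrate dUMP from dUTP and so also keeps uracil out of DNA. TYMS stood at 861 and 891 normalized counts in adherent culture, 215 and 216 at 16 h of sphere culture and 482 and 491 at 5 d. The 3 cultures did not overlap, with 16 h lowest and 5 d between. The log2 fold change was -2.02 ± 0.09 at 16 h (adjusted p = 1.2e-20) and -0.85 ± 0.09 at 5 d (adjusted p = 7.2e-10). DUT behaved differently from TYMS, with 331 and 339 in adherent culture, 336 and 325 at 16 h of sphere culture and 271 and 225 at 5 d. Its 16 h libraries overlapped the adherent ones (-0.02 ± 0.12, adjusted p = 0.9), and its 5 d libraries were below both (-0.44 ± 0.12, adjusted p = 0.0019).

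TYMS counts carry a limit, because the library kit does not mark the strand and exons of ENOSF1, a gene on the opposite strand, share 39.1% of the TYMS exon bases in GENCODE 29. ENOSF1 was also lower in spheres, with -1.89 ± 0.12 at 16 h (adjusted p = 2.9e-16) and -0.73 ± 0.12 at 5 d (adjusted p = 3e-06). In the knockdowns it did not pass the test, at -0.05 for the siSCIRT mean (adjusted p = 0.72) and -0.05 for siEZH2 (adjusted p = 0.88). Reads of the shared bases cannot be assigned to a strand. How much each gene gives to the other's reads was not tested. Smaller overlaps exist for RRM2 (20.2% of exon bases, with AC007240.1 on the same strand), DUT (14.5%, with an antisense RNA), TYMP (10.2% with SCO2, itself higher at 16 h by 0.51 ± 0.18, adjusted p = 0.016, and 10.5% with ODF3B), DCK (6.17%, with MOB1B) and RRM1 (1.51%, with RRM1-AS1). The DUT pseudogenes DUTP1 and DUTP2, which could share reads with DUT, averaged at most 3.16 normalized counts in any knockdown group.

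The kinases TK1, DTYMK and DCK were lower in spheres at both times. TK1, the cytosolic thymidine kinase, stood at 499.5 and 476 normalized counts in adherent culture, 125 and 106 at 16 h of sphere culture and 187 and 200.3 at 5 d. The log2 fold change was -2.07 ± 0.14 at 16 h (adjusted p = 7.4e-16) and -1.33 ± 0.14 at 5 d (adjusted p = 1.6e-10). TK1 at 5 d was above 16 h (0.75 ± 0.14, adjusted p = 2.3e-05) and still far below adherent cells. DTYMK, the thymidylate kinase that takes dTMP from both routes on to dTDP, stood at 278 and 289 in adherent culture, 153 and 148 at 16 h and 128 and 145 at 5 d, with no sphere library near the adherent ones. Its log2 fold change was -0.91 ± 0.15 at 16 h (adjusted p = 3.1e-06) and -1.05 ± 0.15 at 5 d (adjusted p = 2.3e-07). Unlike TK1, DTYMK did not pass the test between 5 d and 16 h (-0.14 ± 0.15, adjusted p = 0.46). DCK, the deoxycytidine kinase that also activates gemcitabine, stood at 208 and 228 in adherent culture, 139 and 126 at 16 h and 126 and 102 at 5 d. It was lower than adherent at 16 h (-0.72 ± 0.17, adjusted p = 0.00052) and at 5 d (-0.93 ± 0.17, adjusted p = 1.5e-05), with no passing difference between the sphere times (-0.22 ± 0.17, adjusted p = 0.3).

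CTPS1, the CTP synthetase that makes the cytidine nucleotide from UTP, stood at 730.5 and 707 normalized counts in adherent culture, 325 and 327 at 16 h of sphere culture and 371 and 417 at 5 d. It was lower at 16 h (-1.14 ± 0.10, adjusted p = 5.5e-13) and at 5 d (-0.87 ± 0.10, adjusted p = 6.5e-10). TYMP, thymidine phosphorylase, works the other way and breaks thymidine down to thymine. In the culture table it was barely present, from 7 to 23 reads per library. It stood at 5.28 and 6.7 normalized counts in adherent culture, 17.1 and 28.1 at 16 h of sphere culture and 11.4 and 10.8 at 5 d. TYMP was not low in the knockdown tables, where the siNC libraries averaged 617 in the siSCIRT table and 326 in the siEZH2 table. Its mean of 5.99 in adherent cells is under the minimum mean of 10, so TYMP entered the test only through the spheres. The log2 fold change of 1.72 ± 0.54 at 16 h (adjusted p = 0.0073) lost its call without adherent replicate 1 (1.57, adjusted p = 0.0637) or without 16 h replicate 2 (1.38, adjusted p = 0.0925).

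From 16 h to 5 d the enzymes parted. RRM2, TYMS, TK1, CTPS1 and RRM1 were higher at 5 d than at 16 h and DUT was lower (-0.42 ± 0.12, adjusted p = 0.0037), so 6 of 9 were called, against 48.3% of all genes, with 22.8% higher and 25.5% lower. RRM2 differed most, followed by TYMS (1.17 ± 0.09, adjusted p = 2.6e-13) and TK1. The calls of CTPS1 (0.27 ± 0.10, adjusted p = 0.018) and RRM1 (0.20 ± 0.08, adjusted p = 0.045) were small. Both were lost with DESeq2 (CTPS1 0.28, adjusted p = 0.0827, and RRM1 0.21, adjusted p = 0.135), with only the groups compared (adjusted p = 0.0526 and 0.0949) and with neither trend nor robust estimation (adjusted p = 0.0677 and 0.122), and RRM1 was also lost without a filter (adjusted p = 0.0602) and on the values as deposited (adjusted p = 0.0644). Without 5 d replicate 2 the count was 3, with DUT at -0.28 (adjusted p = 0.0725), CTPS1 at 0.18 (adjusted p = 0.17) and RRM1 at 0.19 (adjusted p = 0.1). Without 16 h replicate 1, CTPS1 (0.26, adjusted p = 0.0621) and RRM1 (0.12, adjusted p = 0.317) were not called, and leaving out 16 h replicate 2 did the same to CTPS1 (0.27, adjusted p = 0.0547). RRM1 was also not called without adherent replicate 1 (adjusted p = 0.0775), adherent replicate 2 (adjusted p = 0.078) or 5 d replicate 1 (adjusted p = 0.0789), with a log2 fold change of 0.20 or 0.21.

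Markers of S phase and proliferation moved with the enzymes. All 11 of them (PCNA, the helicase subunits MCM2 to MCM7, CCNE2, CDC6, GINS2 and MKI67) were lower in 16 h spheres, with a median log2 fold change of -1.33, and 9 were lower in 5 d spheres, with a median of -1.05. Their summed level was 11130 and 11175 normalized counts in adherent culture, 4449 and 4615 at 16 h of sphere culture and 6478 and 6207 at 5 d. CDC6, which licenses replication origins, differed most at 16 h (-3.07 ± 0.11, adjusted p = 9.7e-24). MKI67 was lower at 16 h (-0.75 ± 0.06, adjusted p = 1.7e-14) and higher at 5 d (0.21 ± 0.06, adjusted p = 0.0015) than in adherent cells. The part of these markers in the enzymes' differences was not tested, and in bulk RNA fewer cells in S phase and less RNA per cell cannot be told apart. Markers of other cell types also moved. DCN, made by fibroblasts, averaged 0.304 normalized counts in adherent culture, 1006 at 16 h of sphere culture and 7.22 at 5 d. COL1A1, a collagen gene, was higher at 16 h (2.17 ± 0.34, adjusted p = 1.1e-06) and at 5 d (1.77 ± 0.34, adjusted p = 3.1e-05), and PDGFRB, a receptor of fibroblasts and pericytes, was lower at 16 h (-1.08 ± 0.31, adjusted p = 0.0035) and did not pass at 5 d (0.03 ± 0.31, adjusted p = 0.94). The markers of other cell types in this table summed to 79.2 and 84.6 in adherent cells, 1103 and 1082 at 16 h and 129 and 108 at 5 d. The leukocyte marker PTPRC was at 0 in both 16 h libraries, and the part of other cell types was not tested.

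After SCIRT silencing most of the enzymes were lower, with both siRNAs. With siSCIRT 1, 7 of the 9 passed the test as lower, against 10.2% of 16607 tested genes called, 4.63% higher and 5.56% lower. With siSCIRT 2, 6 were lower, against 9.54% called, 4.49% higher and 5.05% lower. For the mean of both siRNAs 7 were lower, against 14.4% called, 6.82% higher and 7.58% lower. RRM2, TK1, RRM1 and TYMS had the largest differences, each at 0.628 to 0.654 times the siNC level for the mean of both siRNAs. The 9 enzymes had a median log2 fold change of -0.58 with siSCIRT 1 and -0.46 with siSCIRT 2, beside 0.01 for all tested genes with either. The siRNAs share their siNC libraries, so their values are given side by side. In limma with neither the mean-variance trend nor robust estimation the count with siSCIRT 2 was 3, where TK1 (adjusted p = 0.0531), CTPS1 (adjusted p = 0.0632) and DCK (adjusted p = 0.088) were lost, and DCK (adjusted p = 0.0546) and DTYMK (adjusted p = 0.119) were lost with siSCIRT 1 and DTYMK for the mean (adjusted p = 0.103).

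RRM1 held 3494, 3759 and 3287 normalized counts with siSCIRT 1 and 3243, 4116 and 3713 with siSCIRT 2, against 5505, 4932 and 6260.4 with siNC. No knockdown library reached the lowest siNC library. The log2 fold change was -0.66 ± 0.10 with siSCIRT 1 (adjusted p = 0.00048) and -0.59 ± 0.10 with siSCIRT 2 (adjusted p = 0.0012). RRM2 held 2637, 2716 and 2596 with siSCIRT 1 and 2731, 3221 and 2569.6 with siSCIRT 2, against 4361, 3798 and 5005 with siNC. Here too all 6 knockdown libraries were below all 3 controls, at -0.72 ± 0.10 for siSCIRT 1 (adjusted p = 0.00025) and -0.62 ± 0.10 for siSCIRT 2 (adjusted p = 0.00087). Both subunits fell, and the RRM2 to RRM1 ratio was 0.755, 0.722 and 0.79 with siSCIRT 1 and 0.842, 0.782 and 0.692 with siSCIRT 2, around the 0.792, 0.77 and 0.8 of siNC.

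TYMS held 1067, 944 and 948 normalized counts with siSCIRT 1 and 1072, 1102 and 987 with siSCIRT 2, against 1586, 1417 and 1677 with siNC. The groups did not overlap, and TYMS differed by -0.66 ± 0.09 with siSCIRT 1 (adjusted p = 0.00019) and -0.56 ± 0.09 with siSCIRT 2 (adjusted p = 0.00078) in log2 terms. DUT held 1346, 1133 and 1249 with siSCIRT 1 and 1401, 1347 and 1196 with siSCIRT 2, against 1672, 1291 and 1330.0 with siNC. It overlapped its controls with siSCIRT 1 (-0.20 ± 0.10, adjusted p = 0.27) and siSCIRT 2 (-0.12 ± 0.10, adjusted p = 0.56). TK1 held 2392, 2097 and 2046 with siSCIRT 1 and 2394, 2303 and 2172 with siSCIRT 2, against 4013, 2755 and 3997 with siNC. One siNC library was well under the other two, and still above every knockdown library. On the log2 scale TK1 differed by -0.70 ± 0.12 with siSCIRT 1 (adjusted p = 0.0019) and -0.63 ± 0.12 with siSCIRT 2 (adjusted p = 0.0047). CTPS1 held 1670.5, 1854 and 1689 with siSCIRT 1 and 1798, 2154 and 1742 with siSCIRT 2, against 2612, 2295 and 2905 with siNC. CTPS1 was lower with siSCIRT 1 (-0.58 ± 0.10, adjusted p = 0.0012) and siSCIRT 2 (-0.46 ± 0.10, adjusted p = 0.0074), though without siNC replicate 3 the siSCIRT 2 value was -0.37 (adjusted p = 0.0527).

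**Figure D2:**
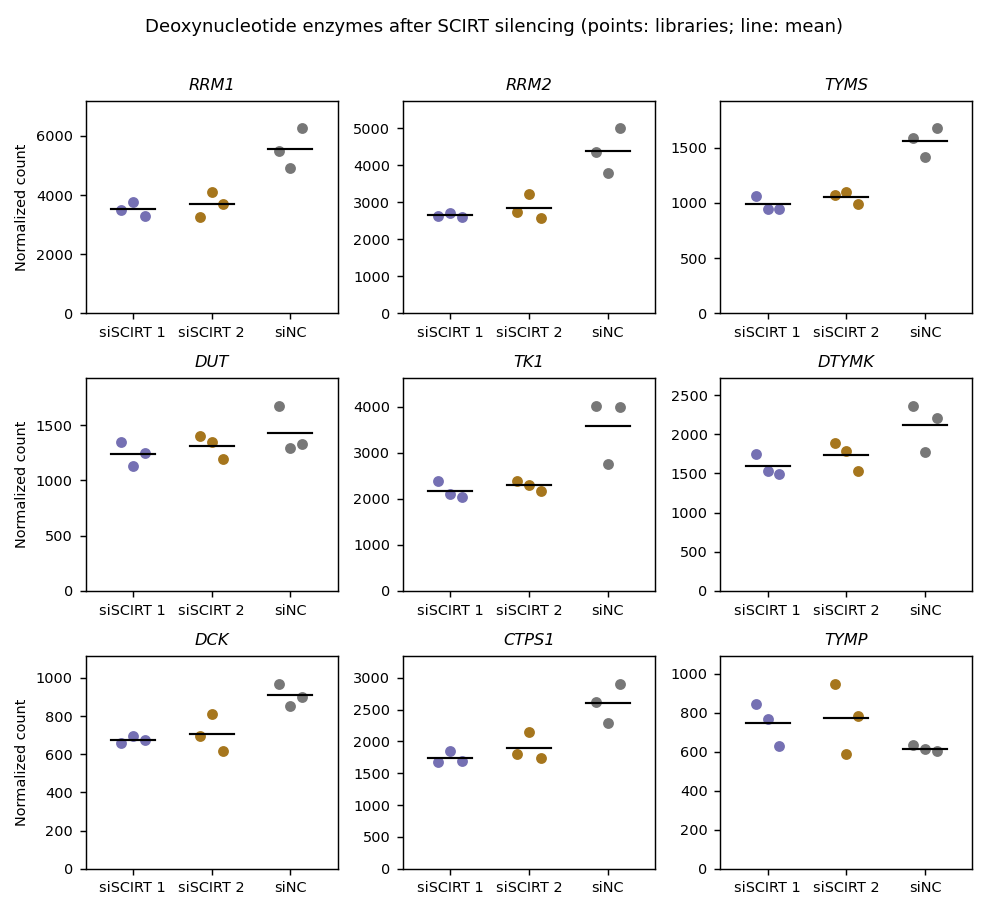
Normalized counts (y axis, from 0) of the 9 enzymes with siSCIRT 1, siSCIRT 2 and siNC. Points are the 3 libraries of a group and lines their mean. RRM1, RRM2, TYMS, TK1, CTPS1 and DCK lie below every siNC library in all 6 knockdown libraries. DTYMK does so with siSCIRT 1 and overlaps siNC with siSCIRT 2. DUT overlaps siNC with both siRNAs, and TYMP runs higher in most libraries.

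DCK and DTYMK showed smaller differences, whose calls were lost when some single libraries were left out. DCK held 660.1, 698 and 673 with siSCIRT 1 and 694, 812 and 617 with siSCIRT 2, against 969, 853 and 902 with siNC, and was lower with siSCIRT 1 (-0.42 ± 0.10, adjusted p = 0.014) and siSCIRT 2 (-0.37 ± 0.10, adjusted p = 0.033). With siSCIRT 1 its call was lost without siNC replicate 1 (-0.37, adjusted p = 0.07), siNC replicate 3 (-0.43, adjusted p = 0.0526) or siSCIRT 1 replicate 3 (-0.42, adjusted p = 0.0533). With siSCIRT 2 it was lost without siNC replicate 1 or 3, siSCIRT 1 replicate 2, or siSCIRT 2 replicate 1 or 3, with log2 fold changes of -0.27 to -0.37 and adjusted p of 0.0512 to 0.156. Over all genes siSCIRT 1 gave 1693 calls. It gave 1069 without siNC replicate 1, 887 without siNC replicate 3 and 976 without siSCIRT 1 replicate 3. DTYMK held 1743, 1526 and 1498 with siSCIRT 1 and 1886, 1787 and 1530.2 with siSCIRT 2, against 2359, 1767 and 2212 with siNC. It was called with siSCIRT 1 (-0.40 ± 0.11, adjusted p = 0.028) and not with siSCIRT 2 (-0.28 ± 0.11, adjusted p = 0.13). The first call was lost without siNC replicate 1 or 3 or siSCIRT 1 replicate 2 or 3 (-0.32 to -0.38, adjusted p of 0.103 to 0.123), and siSCIRT 2 gained one without siNC replicate 2 (-0.40, adjusted p = 0.0166). For the mean of both siRNAs (-0.34 ± 0.09, adjusted p = 0.024), leaving out any of siNC replicate 1 or 3, siSCIRT 1 replicate 2 or 3 or siSCIRT 2 replicate 3 ended the call (-0.26 to -0.33, adjusted p of 0.0529 to 0.139). TYMP was the only one of the 9 with a positive value. It held 846, 770.4 and 632 with siSCIRT 1 and 949, 588 and 782 with siSCIRT 2, against 633, 614 and 603 with siNC, a spread that left both differences short of the threshold (siSCIRT 1 0.27 ± 0.15, adjusted p = 0.29, siSCIRT 2 0.30 ± 0.15, adjusted p = 0.24). Without siSCIRT 2 replicate 2, which overlapped the controls, TYMP was called with siSCIRT 2 (0.48, adjusted p = 0.0345) and for the mean (0.38, adjusted p = 0.0257).

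The S phase markers again moved alongside. All 11 were lower with each siRNA, with median log2 fold changes of -0.56 and -0.55. Their summed level was 33732 to 36292 normalized counts with siSCIRT 1 and 34620 to 37271 with siSCIRT 2, against 48289 to 62541 with siNC. Their part in the enzymes' differences was not tested. The markers of other cell types in this table summed to 1213 to 1436 with siSCIRT 1 and 1347 to 1428 with siSCIRT 2, against 1304 to 1485 with siNC. EZH2 itself was lower with siSCIRT 1 (-0.53 ± 0.08, adjusted p = 0.00056) and siSCIRT 2 (-0.50 ± 0.08, adjusted p = 0.001).

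After EZH2 silencing the direction was the other one. Of the 9 enzymes 5 were higher and none lower, against 6.84% of 15823 tested genes called, 3.9% higher and 2.94% lower. The 5 were RRM2, TK1, RRM1, TYMS and CTPS1, at 1.38 to 2.14 times the siNC level. The median log2 fold change of the 9 was 0.47, beside 0.01 for all tested genes.

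RRM1 held 1242 and 1045 normalized counts with siEZH2, against 807 and 668 with siNC (0.63 ± 0.13, adjusted p = 6.9e-05). RRM2 held 677 and 514 with siEZH2, against 244 and 310.1 with siNC (1.10 ± 0.14, adjusted p = 1.5e-11). Both subunits were above both controls, RRM2 by the larger factor, and the RRM2 to RRM1 ratio was 0.545 and 0.492 with siEZH2, against 0.302 and 0.464 with siNC. TYMS held 355 and 290.4 with siEZH2, against 186 and 232 with siNC (0.62 ± 0.16, adjusted p = 0.0033). TK1 held 683 and 628 with siEZH2, against 296 and 352 with siNC (1.02 ± 0.14, adjusted p = 1.8e-10). CTPS1 held 1091 and 1008 with siEZH2, against 750.4 and 764 with siNC (0.47 ± 0.13, adjusted p = 0.0079). For these enzymes neither siEZH2 library reached down to a control.

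DCK and DTYMK did not pass the test, though both siEZH2 libraries lay above both controls. The share of all genes with such a separation was not counted. DCK held 693 and 513 with siEZH2, against 448 and 499.9 with siNC (0.33 ± 0.14, adjusted p = 0.14). DTYMK held 740.5 and 794 with siEZH2, against 592 and 682 with siNC (0.27 ± 0.13, adjusted p = 0.24). DUT and TYMP overlapped their controls. DUT held 1030.4 and 894 with siEZH2, against 966 and 1028 with siNC (-0.05 ± 0.13, adjusted p = 0.87), and TYMP held 314 and 345, against 315 and 336 (0.01 ± 0.15, adjusted p = 0.98).

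**Figure D3:**
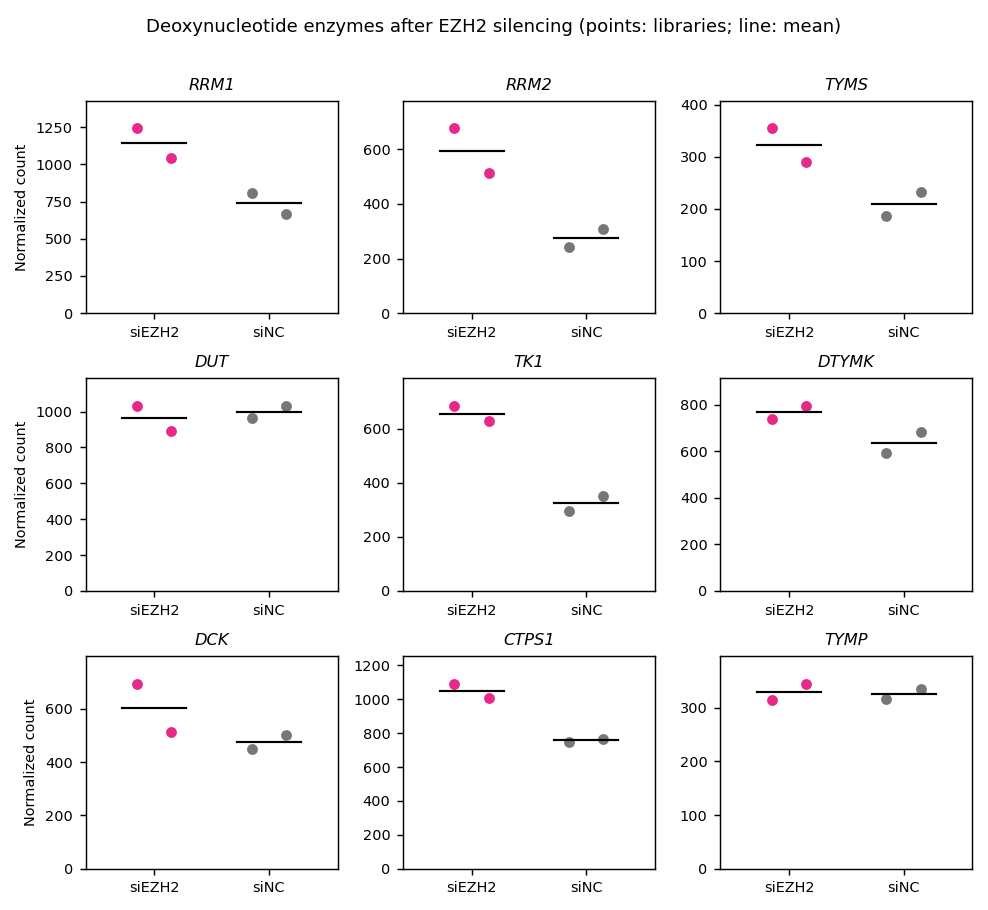
Normalized counts (y axis, from 0) of the 9 enzymes with siEZH2 and with siNC. Points are the 2 libraries of a group and lines their mean. RRM1, RRM2, TYMS, TK1 and CTPS1 are higher in both siEZH2 libraries, with RRM2 and TK1 the furthest apart. DCK and DTYMK are higher in both too but did not pass the test, and DUT and TYMP overlap.

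These calls, from 2 libraries a group, depended on the settings of the test. The count of 5 was kept by edgeR, was 4 with DESeq2 (TYMS at 0.61, adjusted p = 0.053), and was 0 in limma with neither the mean-variance trend nor robust estimation, or without a filter on low genes, where 5 members had an unadjusted p under 0.05. Only 3 members were called without siNC replicate 1 (TYMS 0.47, adjusted p = 0.299; CTPS1 0.46, adjusted p = 0.188) or without siNC replicate 2 (RRM1 0.50, adjusted p = 0.093; CTPS1 0.48, adjusted p = 0.114). Without siEZH2 replicate 1, TYMS lost its call (0.48, adjusted p = 0.106), and without siEZH2 replicate 2, DCK gained one (0.55, adjusted p = 0.00807). Of the 11 S phase markers 8 were higher with siEZH2, with a median log2 fold change of 0.61 and MKI67 at 1.12 ± 0.13 (adjusted p = 2.6e-15). Their summed level was 16069 and 16025 normalized counts with siEZH2, against 11896 and 11543 with siNC, and their part in the enzymes' differences was not tested. The markers of other cell types in this table summed to 856 and 1102 with siEZH2, against 932 and 754 with siNC.

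The siEZH2 and siSCIRT responses were then set against each other in 1 fit over the 13 knockdown libraries, each against its own controls. The siEZH2 response was higher for 7 of the 9 enzymes, against 15% of 15369 tested genes called, 8.51% higher and 6.51% lower. The difference on the log2 scale was 1.77 ± 0.18 for RRM2 (adjusted p = 1.2e-06), 1.68 ± 0.18 for TK1 (adjusted p = 2e-06), 1.26 ± 0.16 for RRM1 (adjusted p = 1.1e-05) and 1.23 ± 0.16 for TYMS (adjusted p = 1.1e-05). It was 0.99 ± 0.14 for CTPS1 (adjusted p = 4.6e-05), 0.73 ± 0.17 for DCK (adjusted p = 0.0057) and 0.61 ± 0.16 for DTYMK (adjusted p = 0.012). DUT (0.10 ± 0.15, adjusted p = 0.72) and TYMP (-0.27 ± 0.20, adjusted p = 0.41) did not pass. RRM1, RRM2, TYMS, TK1 and CTPS1 were called lower with the siSCIRT mean and higher with siEZH2, a pair of calls made for 1.82% of the 15369 genes. The experiments share no library, so the silenced gene and the experiment cannot be told apart. Their siNC libraries also differed in the RRM2 to RRM1 ratio, in which size factors cancel. It was 0.792, 0.77 and 0.8 in the siSCIRT experiment and 0.302 and 0.464 in the siEZH2 experiment. The part of this difference in the responses was not tested. DTYMK lost its call with neither trend nor robust estimation (0.61, adjusted p = 0.0588), without siEZH2 replicate 2 (0.56, adjusted p = 0.0579) or without siNC replicate 1 of the siEZH2 experiment (0.51, adjusted p = 0.0942). DCK lost its call without siEZH2 replicate 1 (0.51, adjusted p = 0.0744) or that same siNC library (0.65, adjusted p = 0.0508).

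**Figure D4:**
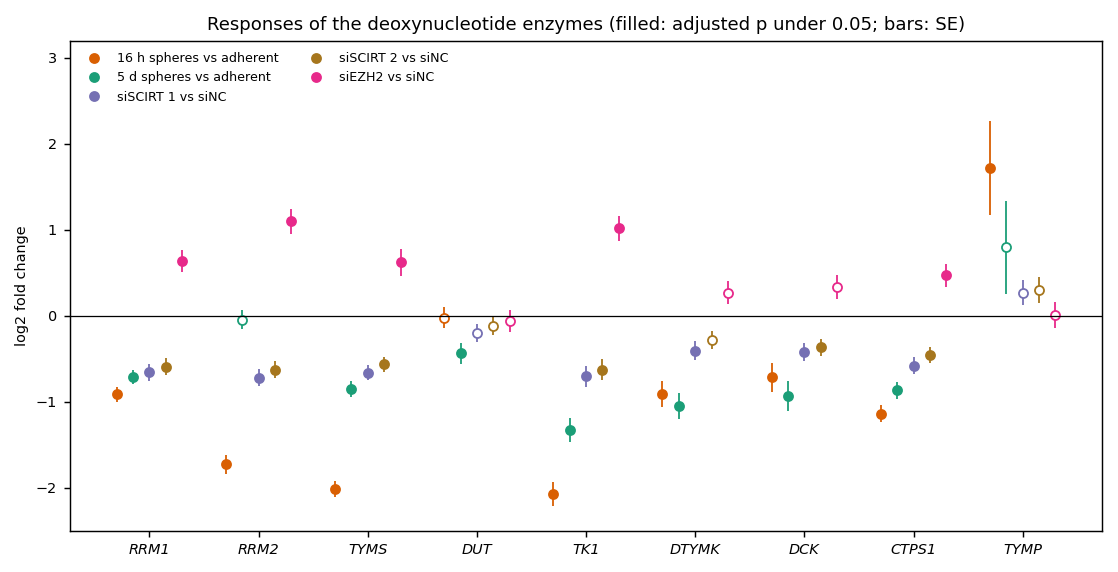
Log2 fold changes (y axis) of each enzyme (x axis) in 5 comparisons, with bars of 1 SE. Filled points have an adjusted p under 0.05. For all enzymes but DUT and TYMP the sphere and siSCIRT points lie below 0 and the siEZH2 point above it. Among these, RRM2 in 5 d spheres is close to 0 and the siEZH2 points of DCK and DTYMK are open. DUT is filled in 5 d spheres alone.

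Levels of different enzymes can be compared only per length, as normalized counts per kb of exon. The length used was the union of all GENCODE 29 exons of a gene, for example 11517 bases for CTPS1, 5323 for RRM2 and 1861 for TK1. The order depends on these lengths, and which transcripts the cells made was not tested. In adherent cells TYMS was highest at 355 per kb, then TK1 at 262, RRM1 at 210, RRM2 at 118 and DTYMK at 116, whose libraries overlapped RRM2. DUT at 91.2, DCK at 67.4, CTPS1 at 62.4 and TYMP at 1.80 followed, without overlap between neighbours. In 16 h spheres the order changed, with RRM1 first at 111 per kb, DUT at 89.9, TYMS at 87.3, TK1 at 62.1 and DTYMK at 61.5, TK1 and DTYMK overlapping. DCK at 41.0 and RRM2 at 35.8 overlapped too, above CTPS1 at 28.3 and TYMP at 6.80. In 5 d spheres TYMS led again at 197 per kb, followed by RRM1 at 128, RRM2 at 114 and TK1 at 104, the last pair overlapping. DUT at 67.5 and DTYMK at 55.7 came next, then DCK at 35.3 and CTPS1 at 34.2, which overlapped, and TYMP at 3.34. In the siNC spheres of the siSCIRT experiment TK1 (1928 per kb) and RRM1 (1333) led with overlapping libraries, followed by DTYMK (862), RRM2 (824), which overlapped DTYMK, and TYMS (632). In those of the siEZH2 experiment DUT (271) and DTYMK (260) led with overlapping libraries, and RRM2 was last at 52.0. Since the tables were normalized separately only the order within each is given. That order differed between the siNC spheres of the siSCIRT and siEZH2 experiments, and why was not tested.

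The genes whose pattern was most like that of a member were found among 8787 genes with a mean of at least 100 in every table. The measure was the root mean square difference of log2 fold changes over 5 comparisons. Closest to TYMS were GTSE1 (0.154), POLE2 (0.169) and CHAF1A (0.179). Closest to RRM2 were CLSPN (0.12), MYBL2 (0.277) and LMNB1 (0.304), and CLSPN had log2 fold changes of -1.89 at 16 h and -0.06 at 5 d. Closest to DCK were HIRIP3 (0.0759), ATAD3A (0.0933) and PSMC3IP (0.0959). TYMP was under the minimum level in the culture table, and no gene is named for it.

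Genes of the neighbouring pathways went both ways. Their counts stand beside the shares of all tested genes called. These were 27.4% higher and 26.5% lower in 16 h spheres and 26.3% higher and 28.9% lower in 5 d spheres. They were 6.82% higher and 7.58% lower with the siSCIRT mean, and 3.9% higher and 2.94% lower with siEZH2. Folate and one-carbon enzymes supply the methyl group that TYMS uses. Of the 11 tested, 6 were lower and 1 higher in 16 h spheres, with a median log2 fold change of -0.33. SHMT2, the mitochondrial serine hydroxymethyltransferase, was lower at 16 h (-1.11 ± 0.04, adjusted p = 2e-23) and at 5 d (-1.14 ± 0.04, adjusted p = 1.5e-23). SLC19A1, the reduced folate carrier, was the 1 higher at 16 h, with 497 and 519 normalized counts in 16 h spheres, against 108 and 116 in adherent cells (2.17 ± 0.15, adjusted p = 2.3e-15). In 5 d spheres 5 of the 11 were lower and 1 higher, with a median of -0.34.

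With the mean of the siSCIRT siRNAs 6 of the 11 folate genes were lower and 1 higher, with a median of -0.24. MTHFD2 (-0.36 ± 0.07, adjusted p = 0.0034), a mitochondrial one-carbon enzyme, and SHMT1 (-0.41 ± 0.08, adjusted p = 0.004), the cytosolic serine hydroxymethyltransferase, were among the lower ones. With siEZH2 3 of the 11 were higher and 1 lower, with a median of 0.26. The higher ones were MTHFD1 (0.40 ± 0.12, adjusted p = 0.023), SHMT2 (0.38 ± 0.12, adjusted p = 0.026) and GGH (0.41 ± 0.13, adjusted p = 0.026), which trims the glutamate tail of folates.

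Other genes of deoxynucleotide supply and salvage showed 4 higher and 7 lower of 15 tested in 16 h spheres (median log2 fold change -0.21), beside 27.4% and 26.5% of all genes. In 5 d spheres 7 were lower (median -0.06), beside 28.9% of all genes. CDA, cytidine deaminase, was lower at both times (-1.44 ± 0.09, adjusted p = 2.8e-17 at 16 h and -1.07 ± 0.09, adjusted p = 1.8e-13 at 5 d). SAMHD1, which breaks down dNTPs, was lower at 16 h (-0.95 ± 0.10, adjusted p = 3.9e-10) and did not pass the test at 5 d (-0.04 ± 0.10, adjusted p = 0.77). RRM2B, the p53-induced partner that can replace RRM2, did not pass at 16 h (0.16 ± 0.11, adjusted p = 0.25) or 5 d (0.23 ± 0.11, adjusted p = 0.088). TK2, the mitochondrial thymidine kinase, did not follow TK1. It did not pass in 5 d spheres (0.07 ± 0.07, adjusted p = 0.39), and it was higher at 16 h (0.23 ± 0.07, adjusted p = 0.0066) and with the siSCIRT mean, at 2823, 2885 and 2901 normalized counts with siSCIRT 1 and 2771, 3067 and 2866 with siSCIRT 2, against 1799.6, 1981 and 1649 with siNC (0.68 ± 0.07, adjusted p = 1.1e-05). With siEZH2 TK2 did not pass (-0.21 ± 0.12, adjusted p = 0.34), and the difference between the responses did (-0.89 ± 0.11, adjusted p = 1.3e-05). In all, 2 of 16 were higher and 3 lower with the siSCIRT mean, and RRM2B was the other one higher (0.25 ± 0.08, adjusted p = 0.043). With siEZH2 limma called 0 of the 16, none with an unadjusted p under 0.05, and edgeR and DESeq2 also called 0.

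De novo pyrimidine genes were mostly lower in spheres, 3 of 4 at each time, CAD among them (-0.34 ± 0.08, adjusted p = 0.00048 at 16 h and -0.69 ± 0.08, adjusted p = 3e-09 at 5 d). With the siSCIRT mean CAD was the 1 called (-0.25 ± 0.07, adjusted p = 0.032). With siEZH2 limma called 0 of 4, with 2 at an unadjusted p under 0.05, and edgeR and DESeq2 called 0. Of 12 purine synthesis genes 4 were higher and 6 lower in 16 h spheres, beside 27.4% and 26.5% of all genes. IMPDH1 (1.06 ± 0.09, adjusted p = 2.9e-12) and IMPDH2 (0.79 ± 0.04, adjusted p = 1e-18), which lead to guanine nucleotides, were higher, and PRPS1, which makes the ribose donor, was lower (-0.76 ± 0.10, adjusted p = 1.7e-08). In 5 d spheres 1 was higher and 5 lower, and with the siSCIRT mean 3 of 13 were lower. With siEZH2 limma called 0 of 13, with 2 at an unadjusted p under 0.05, and edgeR and DESeq2 called 0. Of 5 breakdown genes 2 were tested in spheres, and they stood apart. UPP1, uridine phosphorylase, was lower (-1.31 ± 0.10, adjusted p = 1.5e-13 at 16 h and -2.29 ± 0.10, adjusted p = 1.4e-20 at 5 d), and DPYD, which degrades uracil, thymine and fluorouracil, was higher at 1045 and 1023 normalized counts in 16 h spheres, against 282 and 301 in adherent cells (1.82 ± 0.09, adjusted p = 4.4e-20). With siEZH2 UPP1 was higher (0.39 ± 0.12, adjusted p = 0.028). TYMP is known to respond to interferon. Of the interferon-stimulated genes 2 of 9 were higher and 3 lower in 16 h spheres, near the 27.4% and 26.5% of all genes. With siEZH2 2 of 10 were higher, IFIT1 (0.73 ± 0.13, adjusted p = 2e-06) and ISG15 (0.46 ± 0.12, adjusted p = 0.006), beside 3.9% of all genes. With the siSCIRT mean, where TYMP did not pass, 1 of 10 was higher and 1 lower.

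**Figure D5:**
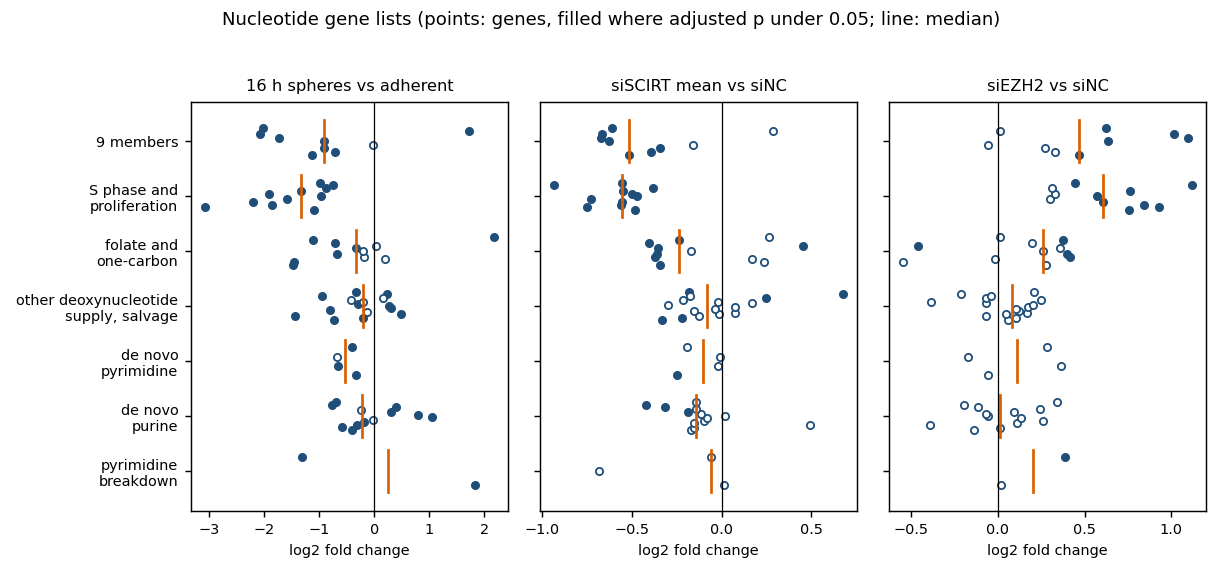
Log2 fold changes (x axis) of the 9 enzymes and 6 gene lists (rows) in 16 h spheres against adherent cells, for the siSCIRT mean against siNC and for siEZH2 against siNC. Points are genes, filled where the adjusted p is under 0.05, and lines are medians. The medians of the 9 enzymes and of the S phase markers lie below 0 in the first 2 panels and above it in the third. Those of the folate, salvage, de novo pyrimidine and de novo purine lists lie on the same sides, at smaller sizes, and that of pyrimidine breakdown does not. In the third panel the purine median (0.01) is level with that of all tested genes (0.01). No gene of the salvage, de novo pyrimidine or de novo purine lists is filled there. TYMP lies on the other side of 0 from the enzymes' median in the first 2 panels and DUT in the third. Genes of the purine and salvage lists lie on both sides of 0.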

How the data were processed

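Total RNA was extracted with TRI Reagent and sequenced from TruSeq RNA v2 libraries, per the labels' protocols. CASAVA 1.4, TopHat2, Partek and the build hg19 appear in the submitters' processing notes, which give them no roles. Neither the counting program nor the annotation is stated there. The culture and siSCIRT tables hold deposited log2 values of a variance-stabilizing transform. Its exact inverse gave normalized counts, and dividing these by 1 step per library gave whole reads for 100% of values in every library (tolerance 0.05). The siEZH2 table holds deposited normalized counts, the signal left when the authors divided reads by a size factor per library, and its values gave whole reads in the same way. The planned test expected linear values, so the first 2 tables were converted before it. No column was left without a sample, and 1 set of siSCIRT columns whose names give no siRNA number was taken as siSCIRT 1 because the other set is marked as siSCIRT 2.

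Normalized counts were tested as log2(value + 1) with limma 3.58.1 (R 4.3.3, eBayes with trend and robust), separately in each table, for all genes averaging at least 10. P-values are two-sided and Benjamini-Hochberg adjusted over all genes tested, a call needs an adjusted p under 0.05, and errors of fold changes are SEs. Fold changes on this scale understate changes of low genes. One fit over both siRNA tables tested the difference between the siEZH2 response and the mean siSCIRT response. edgeR 4.0.16 (quasi-likelihood) and DESeq2 1.42.0 on the recovered whole reads were alternatives, with other pseudocounts, filters, scalings and libraries left out. The limma steps were first tested on simulated data.

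Totals of recovered reads were 6104222 to 62218847 per library. Counting error weighs most in the culture table, above all for TYMP. There DCK had 66 and DTYMK 94 reads in 5 d replicate 2, and TK1 had 87 in 16 h replicate 2. The labels do not say that replicates were separate cultures, so p-values measure the spread between libraries, which may be technical. Between replicates the median squared difference was 2.02 to 2.07 times the counting variance in the culture table and 3.37 to 8.61 times in the knockdown tables. No pair looked like 1 library deposited again. Where libraries of groups are said not to overlap, this describes the values of the genes named. The share of all genes without overlap was not counted. All 9 members are named, and other genes come from lists of related pathways, markers, transcripts that overlap a member and, for TYMS, RRM2 and DCK, the 3 genes most like each. Members and lists were chosen with earlier results of these data known. Exon lengths and overlaps come from GENCODE 29 (GRCh38), not the build of the reads, and promoter sequences from RefSeq. Some results for list genes are not reported here.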

Additional observations from a re-analysis of the deposited data

Results flagged for a closer look

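For 7 of the 9 enzymes the response to siEZH2 and the mean response to the siSCIRT siRNAs differed from each other by a test of that difference in limma over the 13 knockdown libraries. RRM2 had a log2 fold change of 1.10 with siEZH2 and -0.67 with the siSCIRT mean, a difference of 1.77 ± 0.18 (adjusted p = 1.2e-06). For TK1 the log2 fold change was 1.02 with siEZH2 and -0.66 with the siSCIRT mean, which differ by 1.68 ± 0.18 (adjusted p = 2e-06). RRM1 had a log2 fold change of 0.63 with siEZH2 and -0.63 with the siSCIRT mean, a difference of 1.26 ± 0.16 (adjusted p = 1.1e-05). For TYMS the log2 fold change was 0.62 with siEZH2 and -0.61 with the siSCIRT mean, which differ by 1.23 ± 0.16 (adjusted p = 1.1e-05). CTPS1 had a log2 fold change of 0.47 with siEZH2 and -0.52 with the siSCIRT mean, a difference of 0.99 ± 0.14 (adjusted p = 4.6e-05). For DCK the log2 fold change was 0.33 with siEZH2 and -0.39 with the siSCIRT mean, which differ by 0.73 ± 0.17 (adjusted p = 0.0057). DTYMK had a log2 fold change of 0.27 with siEZH2 and -0.34 with the siSCIRT mean, a difference of 0.61 ± 0.16 (adjusted p = 0.012). DCK and DTYMK are included for the difference alone, since neither passed the test with siEZH2. The difference was not called for DTYMK without siEZH2 replicate 2 (adjusted p = 0.0579), without siNC replicate 1 of that experiment (adjusted p = 0.0942) or in limma with neither trend nor robust estimation (adjusted p = 0.0588), and it was not called for DCK without siEZH2 replicate 1 (adjusted p = 0.0744) or without that siNC library (adjusted p = 0.0508). The silenced gene and the experiment cannot be told apart in these differences, because the experiments share no library.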

How the results depend on the processing

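Outside leaving out libraries, 28 member values lost a call, 3 gained one, none reversed and 631 kept their direction and side of the threshold. With 1 library left out, 508 kept both, 38 lost a call, 4 gained one and 8 reversed, each of the 8 small and not called. Reversals occurred within these log2 ranges: DUT at -0.0436 to 0.00378 in 16 h spheres (above 0 without 16 h replicate 2), RRM2 at -0.136 to 0.0460 in 5 d spheres (above 0 without 5 d replicate 1), DUT at -0.185 to 0.00201 with siSCIRT 2 (above 0 without siNC replicate 1), DUT at -0.157 to 0.0476 with siEZH2 (above 0 without siEZH2 replicate 2) and TYMP at -0.0533 to 0.0824 with siEZH2 (below 0 without siEZH2 replicate 2, and -0.0302 without siNC replicate 1). DUT ran from -0.0163 to 0.204 in the difference of responses, below 0 without siNC replicate 1 of the siSCIRT experiment and, at -0.00151, without siEZH2 replicate 1. The count of members called moved to 3 with siSCIRT 2 in limma with neither trend nor robust estimation, and to 0 with siEZH2 in limma without a filter or with neither of those, where 5 members had an unadjusted p under 0.05 and edgeR called 5 and DESeq2 4; the cause was not tested. With 1 library left out the count was 7 to 8 in 16 h spheres, 7 to 7 in 5 d spheres, 3 to 5 for 5 d against 16 h spheres, 5 to 7 with siSCIRT 1, 4 to 7 with siSCIRT 2, 6 to 8 for their mean, 3 to 6 with siEZH2 and 5 to 7 for the difference.

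Over all genes siEZH2 gave 1082 calls (edgeR 1088), but 678 with DESeq2, 532 with the replicate block, 342 without siNC replicate 1, 508 without siNC replicate 2 and 0 in limma without a filter (3413 genes at an unadjusted p under 0.05) or with neither trend nor robust estimation (2471). For siSCIRT 1 the 1693 calls became 3144 with the block, 1009 with neither trend nor robust estimation, 887 to 1069 without siNC replicate 1 or 3 and 945 to 976 without siSCIRT 1 replicate 2 or 3. For siSCIRT 2 the 1584 became 3110, 870, 769 to 922 without siNC replicate 1 or 3 and 911 without siSCIRT 2 replicate 3. For their mean the 2390 became 4030 with the block, and 1461 and 1242 without siNC replicates 1 and 3. The 2309 calls of the difference became 1494 without siEZH2 replicate 1 and 1489 without siNC replicate 1 of that experiment. On the recovered reads edgeR called 7806 genes in 16 h spheres, 7907 in 5 d spheres, 6639 for 5 d against 16 h spheres, 1720 with siSCIRT 1, 1603 with siSCIRT 2 and 2448 for their mean. DESeq2 called 6361, 6418 and 5079 in the same culture comparisons, where limma called 7430, 7614 and 6665. With siSCIRT 1, siSCIRT 2 and their mean DESeq2 called 2217, 2152 and 2973. Same-numbered libraries correlated at 0.0208 to 0.299 in the siSCIRT table, -0.00894 to 0.0185 in the culture table and -0.0854 in the siEZH2 table, and not every library correlated best with its own number, so the numbers were not taken as pairs. With the replicate block DTYMK was called with siSCIRT 2 (-0.28, adjusted p = 0.0164), TYMP was called for the siSCIRT mean (0.29, adjusted p = 0.0403) and TYMS was not called with siEZH2 (0.62, adjusted p = 0.0678); the block changed no other call of a member. The block and the deposited values were not run for the difference of responses. Depth limits TYMP most in the culture table, at 7 to 23 reads per library.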
